A study of Homo sapiens with 2 samples.

Results

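HNRNPC peaks on human chromosomes 19 and 22 were described from a list of regions enriched in RNA that had been co-precipitated with the protein. The members are all rows of the list whose chromosome is 19 or 22, which gave 577 of 23148 peaks (2.49%), 358 on chromosome 19 and 219 on chromosome 22. The remaining 20 autosomes held 21672 peaks. The pair was chosen by its number of peaks relative to its genes, which an earlier count of the same list had shown to be low. Peak counts, shares and folds are therefore a description and carry no test.

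The series is an RNA immunoprecipitation sequencing (RIP-seq) experiment in A549, an established human lung adenocarcinoma line. It has 1 library of RNA precipitated from A549 lysate with 5 µg of antibody to HNRNPC, and 1 library of input RNA from A549 lysate taken without antibody, whose values were not analysed here. No genetic change or treatment is named for either. Each group is a single sample of a single cell line, so no value has a replicate error and no test between samples was possible. The list holds a position, a summit, a fold enrichment and a −log10 q for each peak, without strand or read totals, so the depth of the library is unknown. Intervals below are at the 95% level, exact Clopper-Pearson for shares and exact Poisson for counts. They cover counting error alone and treat peaks and genes as independent, which neighbouring peaks are not.

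HNRNPC is an abundant nuclear protein that coats nascent transcripts and binds runs of uridine, and it is known to mask cryptic splice sites within introns. It has also been described as a reader of N6-methyladenosine, a mark of RNA that can open structured U-runs. Chromosomes 19 and 22 are known for closely packed, mostly short genes, and chromosome 19 for large tandem families such as the C2H2 zinc finger repressors, the leukocyte immunoglobulin-like receptors and the kallikreins.

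The sequences on which the strongest peaks at gene starts lie are shown first. Each is a RefSeq window (GRCh38.p14) from 250 bases before to 50 after an annotated start, written 5′ to 3′ on the gene's strand, and capitals mark the bases that the peak covers. The 6 are the protein-coding genes in which a peak with a fold of 11 or more covered at least 30 bases of a window, 1 window a gene.

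TUG1 start region, chr22:30969015-30969314, plus strand: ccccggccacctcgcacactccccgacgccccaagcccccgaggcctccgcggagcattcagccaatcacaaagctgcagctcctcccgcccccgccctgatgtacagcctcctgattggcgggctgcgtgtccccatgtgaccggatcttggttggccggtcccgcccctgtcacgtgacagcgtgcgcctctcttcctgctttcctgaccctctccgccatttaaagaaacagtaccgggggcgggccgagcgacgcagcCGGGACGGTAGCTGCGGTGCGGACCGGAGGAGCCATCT
NF2 start region, chr22:29603383-29603682, plus strand: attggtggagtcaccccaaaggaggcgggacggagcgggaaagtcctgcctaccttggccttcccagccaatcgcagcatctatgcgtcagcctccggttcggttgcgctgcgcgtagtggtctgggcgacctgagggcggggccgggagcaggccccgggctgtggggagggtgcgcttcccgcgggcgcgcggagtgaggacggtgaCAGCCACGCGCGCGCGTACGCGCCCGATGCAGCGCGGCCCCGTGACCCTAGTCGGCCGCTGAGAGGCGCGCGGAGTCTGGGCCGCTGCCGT
ZNF460 start region, chr19:57280235-57280534, plus strand: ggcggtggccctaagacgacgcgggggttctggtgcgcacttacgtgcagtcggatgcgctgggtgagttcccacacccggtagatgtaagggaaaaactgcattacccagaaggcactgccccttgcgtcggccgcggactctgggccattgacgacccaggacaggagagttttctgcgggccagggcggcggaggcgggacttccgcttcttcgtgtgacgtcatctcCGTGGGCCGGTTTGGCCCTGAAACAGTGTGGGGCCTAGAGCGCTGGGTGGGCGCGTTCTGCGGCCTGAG
DDX17 start region, chr22:38506262-38506561, minus strand: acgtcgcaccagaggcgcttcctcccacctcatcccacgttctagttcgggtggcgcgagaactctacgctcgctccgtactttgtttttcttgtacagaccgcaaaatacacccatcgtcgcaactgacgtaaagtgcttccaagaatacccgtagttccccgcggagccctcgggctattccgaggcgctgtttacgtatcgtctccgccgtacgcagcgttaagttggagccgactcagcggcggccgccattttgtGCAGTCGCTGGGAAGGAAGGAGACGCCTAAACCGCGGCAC
AXL start region, chr19:41218973-41219272, plus strand: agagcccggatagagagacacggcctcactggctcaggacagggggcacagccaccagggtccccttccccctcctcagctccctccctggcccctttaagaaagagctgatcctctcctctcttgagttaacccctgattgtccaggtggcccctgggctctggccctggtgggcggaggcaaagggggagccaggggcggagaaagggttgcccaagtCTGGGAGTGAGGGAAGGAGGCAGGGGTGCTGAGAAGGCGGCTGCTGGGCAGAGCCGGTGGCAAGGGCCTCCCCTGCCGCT
ZNF121 start region, chr19:9584455-9584754, minus strand: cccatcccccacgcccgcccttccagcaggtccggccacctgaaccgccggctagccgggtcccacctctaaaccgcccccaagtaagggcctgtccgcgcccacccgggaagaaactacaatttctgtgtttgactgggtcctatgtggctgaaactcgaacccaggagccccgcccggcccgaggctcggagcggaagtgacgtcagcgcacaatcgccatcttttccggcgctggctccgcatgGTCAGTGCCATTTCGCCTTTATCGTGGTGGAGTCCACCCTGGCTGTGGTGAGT

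The peaks over these windows had folds of 15.3 (TUG1), 14.5 (NF2), 14.01 (ZNF460), 13.9 (DDX17), 13.4 (AXL) and 11.1 (ZNF121), where fold is the authors' enrichment at the summit over the background their caller used. The covered parts were 38, 91, 69, 40, 80 and 53 bases long in the same order. Their G+C content was 71.1%, 78.02%, 69.6%, 65.0%, 71.3% and 56.6%. All 6 peaks reach further into the gene than the window does. In ZNF460, AXL and ZNF121 the summit itself lay inside the window.

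One annotated miRNA hairpin on the 2 chromosomes lay within a peak, out of 170 (0.588%), against 9 of 1291 (0.697%) on the other autosomes. It is MIR3618, which sits in DGCR8, the gene of the DROSHA partner that recognises such hairpins. In the hairpin below capitals mark the mature miRNA, and in the mature sequence they mark the seed, bases 2 to 8.

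MIR3618 hairpin, chr22:20085746-20085833, plus strand: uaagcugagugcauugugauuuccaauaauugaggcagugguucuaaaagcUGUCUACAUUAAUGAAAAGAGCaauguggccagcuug
hsa-miR-3618: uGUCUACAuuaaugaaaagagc

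The peak over this hairpin (chr22:20085733-20086041) was 309 bp wide with a fold of 5.80 and contained all 88 nucleotides. DGCR8 held 6 peaks in all, the strongest, with a fold of 7.70, at its start. A second miRNA locus, MIR23AHG, the host transcript of MIR23A, MIR27A and MIR24-2, had 1 peak with a fold of 6.93 (chr19:13841423-13842117). The 3 hairpins lay 4764 to 5064 bp away from that peak.

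Few of the genes on the 2 chromosomes carried HNRNPC peaks. A gene was counted as carrying a peak when its RefSeq span held the summit and no other protein-coding span did. By that rule 131 of 1849 protein-coding genes on chromosomes 19 and 22 had a peak (7.08%, interval 5.96 to 8.35%), against 3194 of 17120 (18.7%) on the other 20 autosomes. Over all 22 autosomes the share was 17.5%. Chromosome 19 stood lowest of the 22, with 84 of 1410 genes (5.96%, 4.78 to 7.32%). On chromosome 22, 47 of 439 genes had a peak (10.7%, 7.97 to 13.98%), next to chromosome 11 with 10.6% and chromosome 16 with 11.1%, whose intervals overlap with it. Among lncRNA genes 3 of 815 carried a peak on the 2 chromosomes (0.368%), beside 0.496% over all autosomes.

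Peaks per Mb of gene span did not follow the order of gene density. Peak-carrying genes were a small share of all genes on the densest chromosomes. Chromosomes 19, 17, 22, 11 and 16, the 5 with most genes per Mb, ranked 22, 17, 20, 21 and 19 by that share, and chromosome 18, the least dense, ranked 1. Chromosome 19 had 24.1 protein-coding genes per Mb, chromosome 17 had 13.9 and chromosome 22 had 10.9, the 3 highest values among the autosomes. Chromosome 17 carried 27.2 peaks per Mb of protein-coding gene span, second of the 22, whereas chromosome 19 carried 11.4 (10.2 to 12.6) and chromosome 22 carried 11.4 (9.96 to 13.04). Chromosomes 19 and 22 ranked 22nd and 21st on that measure, just under chromosome 18 with 12.02, which has the lowest gene density, 3.34 per Mb, and the intervals of these 3 overlap. Relative to the other autosomes, the 2 chromosomes had 0.609 times the peaks per Mb of gene span and 0.247 times the peaks per gene.

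**Figure D1:**
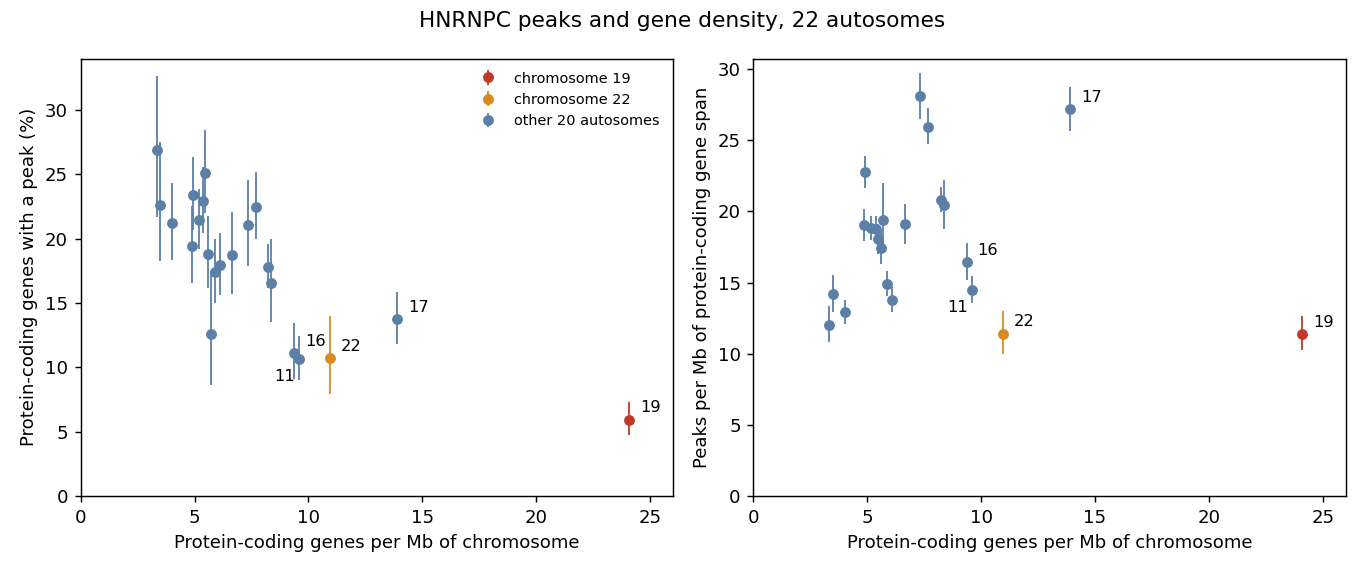
Each point is 1 autosome, with protein-coding genes per Mb on the x axis. The left panel shows the percentage of those genes with a peak and the right panel the peaks per Mb of gene span; bars are 95% exact intervals. Chromosome 19 lies lowest on the left at 5.96%, and on the right chromosomes 19 and 22 lie at 11.4 while chromosome 17 lies at 27.2.

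The gap remained, though smaller, among genes of like span. The median span of a protein-coding gene was 15.8 kb (15849 bp) on chromosomes 19 and 22, against 26.6 kb (26622 bp) on the other autosomes. Genes were therefore sorted into 10 classes of span. If every class on chromosomes 19 and 22 had had the share of the other autosomes, 246.6 genes would have carried a peak, and the observed 131 is 0.531 times that number (0.447 to 0.626). The ratio was 0.485 (0.389 to 0.596) on chromosome 19 and 0.641 (0.478 to 0.838) on chromosome 22. The share on the 2 chromosomes was below the other autosomes in 9 of 10 classes. In class 7, of 36.1 to 53.1 kb, 18 of 166 genes had a peak (10.8%, 6.55 to 16.6%), against 28.02% elsewhere. In the longest class, above 153 kb, 12 of 33 had one (36.4%, 20.4 to 54.9%), against 32.6%.

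**Figure D2:**
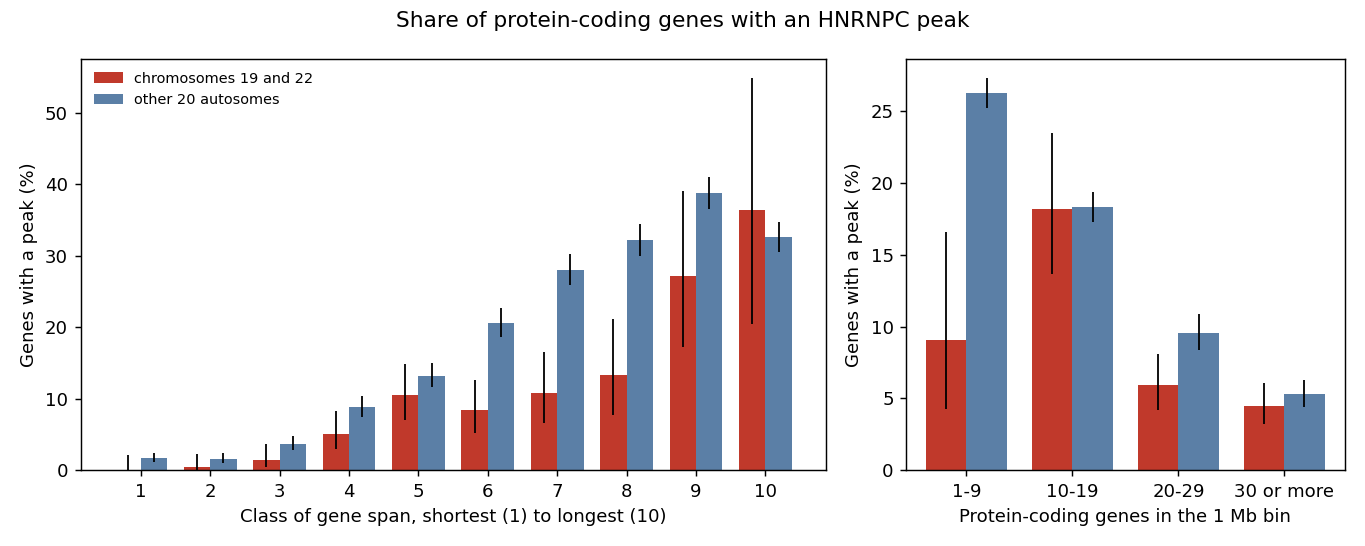
Percentage of protein-coding genes with a peak on chromosomes 19 and 22 (red) and on the other 20 autosomes (blue), by span class on the left and by the number of genes in the 1 Mb bin on the right; bars are 95% exact intervals. Red lies below blue in span classes 1 to 9, with the intervals apart in classes 6 to 8 only. In the bins of 10 to 19 genes red and blue stand at 18.2% and 18.3%.

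Genes that did carry peaks carried fewer of them. The median was 2 peaks per gene on chromosomes 19 and 22, against 4 on the other autosomes, and the means were 3.86 and 6.42. A single peak was found in 41 of the 131 genes (31.3%), against 22.6% of such genes elsewhere, and the highest number was 19, against 88. The 12 genes with 10 or more peaks held 153 peaks, 30.2% of those in single genes. Such genes were relatively fewer here, 12 of 131, than on the other autosomes, where 715 of 3194 genes with a peak had 10 or more. Genes with a peak had a median span of 34714 bp, against 14592 bp for those without. On the other autosomes those medians were 67839 bp and 19952 bp.

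PTPRS, which encodes a receptor-type tyrosine phosphatase, led with 19 peaks in 135305 bp (chr19:5205508-5340812, minus strand). Their folds ran between 3.60 and 15.5 with a median of 5.85, and the 5 highest, 10.7 to 15.5, were among 8 consecutive peaks, with values of 6.66 to 8.53 between them. No other gene of its 1 Mb bin, which holds 21, carried a peak.

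DDX17, a DEAD-box RNA helicase that takes part in splicing, had 14 peaks within 22874 bp (chr22:38483438-38506311, minus strand). At 6.12 peaks per 10 kb it was the most densely covered of the genes with 3 or more peaks. Of its peaks 6 had folds above 11, up to 16.7 at chr22:38498054-38498182, and its median fold of 8.37 was the highest of the 12 genes. Next by density were IRGQ with 5.10 peaks per 10 kb, ZNF805 with 4.98, TUG1 with 4.94 and TOB2, an antiproliferative BTG/TOB protein, with 3.76.

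RHPN2 also had 14 peaks (chr19:32978592-33064888), but with a median fold of 3.89. Only 3 of them exceeded 10 (12.01, 11.7 and 10.1) and the other 11 lay between 2.90 and 4.97. TNRC6B, an Argonaute-binding protein of miRNA silencing, had 14 over 290975 bp (chr22:40044834-40335808), and their folds were more even, between 4.47 and 10.1. NF2, which encodes the tumour suppressor merlin, had 13 (chr22:29603556-29698600), with the 2 highest, 14.5 at the start and 14.5 in the body, next to each other.

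The genes with 12 peaks were DPY19L3, a C-mannosyltransferase (best fold 11.3), XPNPEP3, a mitochondrial aminopeptidase (9.79), SIPA1L3 (9.16) and KIAA1671 (9.16). ZNF805 had 11 (11.2), and GARRE1 and EP300, the histone acetyltransferase p300, had 10 each (7.70 and 7.22). AXL, a receptor tyrosine kinase, followed with 9 peaks, of which the one at the start had a fold of 13.4 and the other 8 had 3.51 to 6.58. NUP50 of the nuclear pore (8.67), TTC28 (7.22) and LSM14A, a P-body protein (5.60), had 9 each. The spread of folds within a gene thus differed, wide in PTPRS, DDX17, RHPN2 and NF2 and narrow in GARRE1 and EP300.

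**Figure D3:**
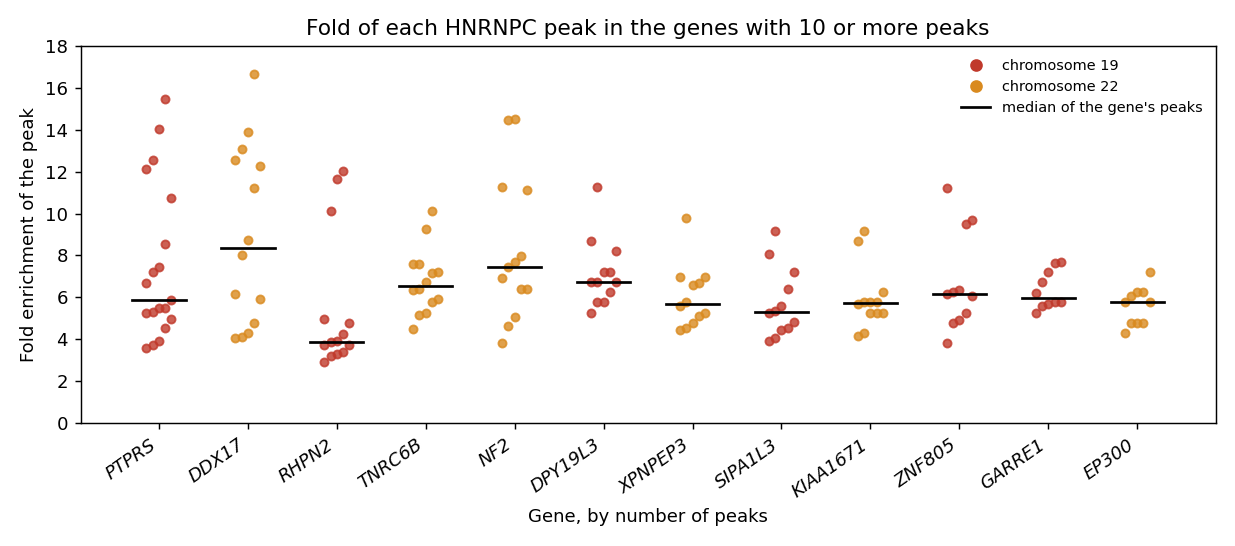
Fold enrichment of every peak in the 12 genes with 10 or more peaks, in order of peak number; each point is 1 peak and the line is the gene's median. PTPRS reaches 15.5 with a median of 5.85, DDX17 has the highest median, 8.37, and RHPN2 the lowest, 3.89, with 3 peaks above 10.

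The strongest peaks lay in a mixed set of genes. The median fold of all peaks was 5.59 (interval of the median 5.4 to 5.76) on chromosomes 19 and 22, against 5.76 on the other autosomes, so the interval reaches that value. Chromosome 22 had the same median, 5.76, and chromosome 19 the lowest of the 22, 5.47. Folds of 10 or more were reached by 42 of the 577 peaks (7.28%), against 8.67%. The highest belonged to ZNF460, a C2H2 zinc finger gene (chr19:57279982-57294069, plus strand). Along the gene its 4 peaks had folds of 8.19, 14.01, 19.3 and 20.7, so that the one at the 3′ end was the strongest. That peak ranked 20th by fold of the 22249 peaks on autosomes.

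Of the other genes among the 15 highest peaks, CRKL, an SH2 and SH3 adaptor, had 14.6 at its start, 16.2 in its body and 2 weaker peaks of 6.11 and 4.32 nearer its end. ZNF121 reached 15.7 and TUG1, known as a long noncoding RNA and listed as protein-coding in this RefSeq table, reached 15.3. RAB3D, a GTPase of secretory vesicles, had 2 peaks of 8.80 and 14.3. PTPRS held 2 of the 15 and DDX17 and NF2 held 2 each. A summit shared by ZNF565 and ZNF146, whose spans overlap, had 14.01.

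The folds depend on the background at the summit as well as on the precipitated reads. With the fold and p of each peak, the read number and background that the formulas of MACS2 imply could be solved to within 0.01 of the −log10 p for all 577 peaks, with a single solution for 92.4%. The median was 15 reads at the summit on both sides of the comparison. The lowest possible background was found at 32.1% of the peaks on chromosomes 19 and 22, against 47.9% on the other autosomes. Chromosomes 19 and 22 ranked 22nd and 21st of the 22 for that share. The median inferred background was 0.282, against 0.141, in the caller's scaled reads. Its part in the lower number of peaks was not tested.

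Peaks on these chromosomes were more often broad. A width of 1 kb or more was found for 32 of 577 (5.55%, 3.82 to 7.74%), against 2.48% on the other autosomes, and chromosome 22 with 6.85% and chromosome 19 with 4.75% ranked first and second of the 22. The median width was 130 bp, against 125 bp. The widest peak was the last of ZNF460, 6252 bp (chr19:57290672-57296923), and the next, 6238 bp with a fold of 10.8, followed directly, at chr19:57297077-57303314, beyond the annotated 3′ end of the gene. After these came ZNF121 with 3669 bp, ARHGAP35, a GTPase-activating protein, with 3188 bp and DDX17 with 2915 bp. Of 24 wide peaks placed in genes of known strand, 83.3% had their summit nearer the gene's end than its start. On the other autosomes 70.6% of 401 such peaks did. With 24 peaks in 18 genes the share is uncertain, and the difference was not tested.

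Along the arms the number of peaks differed from bin to bin. The short arm of chromosome 19 held 100 peaks in 607 genes, of which 31 carried one (5.11%), and the long arm held 258 in 803 genes, of which 53 did (6.60%). All 219 peaks of chromosome 22 were on the long arm. Of 90 bins of 1 Mb with a gene, the 10 fullest held 268 of the 577 peaks (46.4%, 42.3 to 50.6%). These bins were picked for their number of peaks, and the same share was not counted on the other autosomes. It therefore does not show whether the peaks are more clustered here.

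The fullest bin was near the end of the long arm of chromosome 19, at 57 to 58 Mb, and held 57 peaks. A peak lay in 11 of its 40 genes, 30 of which are ZNF genes, and 9 of the peaks lay outside every gene span, near ZNF460 (5), ZNF749 (2) and ZNF552 (2). ZNF805, ZNF460 and ZNF543, adjacent genes, all carried peaks, as did ZNF264, ZNF749, ZNF548, ZNF550, ZNF776, ZNF587B, ZNF587 and ZNF417. The second, at 32 to 33 Mb, held 37 peaks in 6 of 11 genes, among them ZNF507, DPY19L3, NUDT19 and RHPN2, and stood at the edge of a 4.54 Mb stretch without any peak that holds only 9 genes. On chromosome 22 the fullest were 40 to 41 Mb with 28 peaks, led by TNRC6B and XPNPEP3, and 29 to 30 Mb with 24, led by NF2. PTPRS alone filled its bin with 19. The bin at 38 to 39 Mb of chromosome 19 had 18, of which 10 lay in SIPA1L3 and 8 in ACTN4, an actin crosslinker.

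Close neighbours were about as common as elsewhere. Of neighbouring summits 21.9% lay 1 kb or less apart (18.6 to 25.5%), against 18.7% on the other autosomes. Within 5 kb the order was the opposite, 51.1% against 54.5%.

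**Figure D4:**
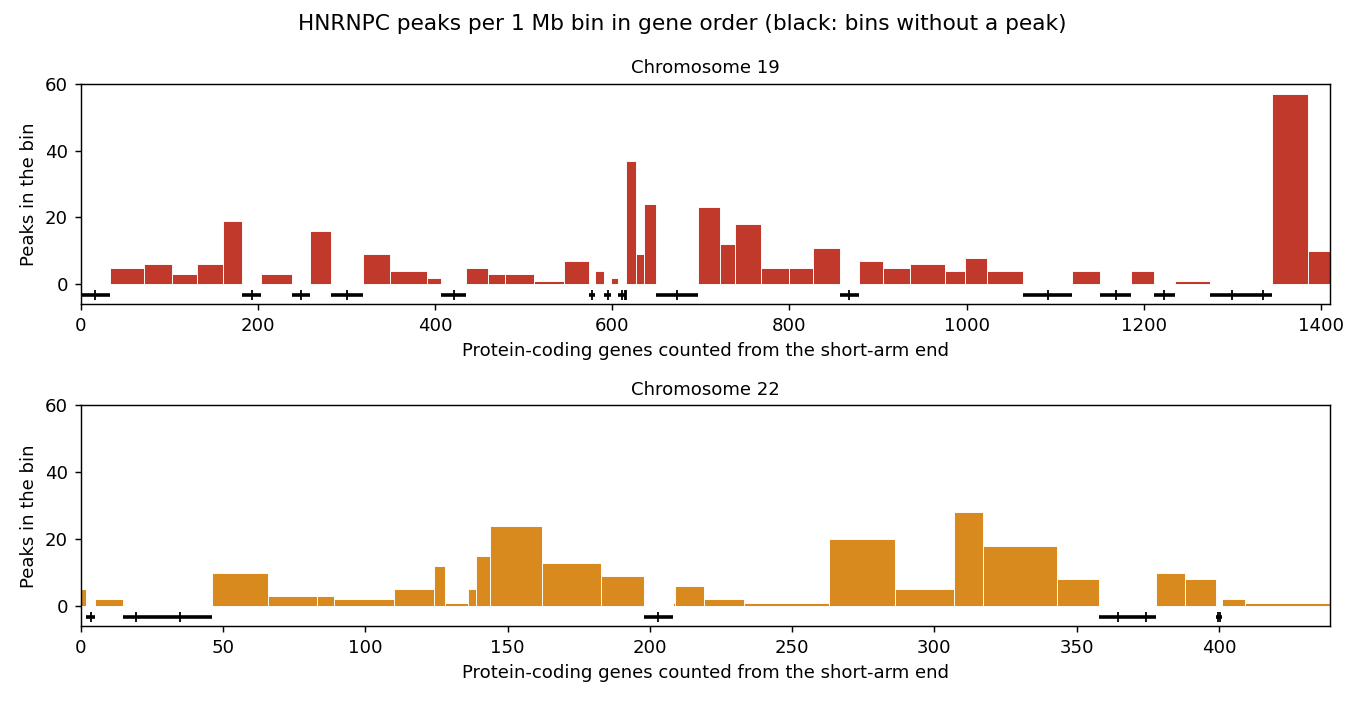
Peaks in each 1 Mb bin of chromosome 19 (top) and chromosome 22 (bottom), drawn in gene order so that the width of a bar is the number of protein-coding genes in the bin; black lines under the axis mark bins without a peak. The bin with 57 peaks stands at the far end of chromosome 19, right after a long stretch of bins with 1 or no peak, and 4 further peaks in bins without a gene are not drawn.

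Most genes of chromosome 19 lay in long rows of genes without a peak. In rows of 20 or more consecutive protein-coding genes without any peak, shared ones included, stood 1148 genes of the 2 chromosomes (62.1%), against 24.2% on the other autosomes. The share was 71.5% on chromosome 19 and 31.9% on chromosome 22. Such rows grow longer where fewer genes carry a peak, and the pair was chosen by its low number of peaks. No count was made with the same number of peak-carrying genes placed at random. How far the rows go beyond that low share was therefore not tested. The longest row on chromosome 19 had 144 genes, against at most 84 on any other autosome (chromosome 11), and the longest on chromosome 22 had 34. Rows of genes that all carried a peak were no longer than 3 genes, against 7 elsewhere.

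The row of 144 genes ran from ZNF600 to DUXA over 4.403 Mb and ended just inside the fullest bin. It holds the leukocyte and killer-cell immunoglobulin-like receptor clusters (LILRB1, KIR2DL1), the splicing factor genes PRPF31 and U2AF2, the ribosomal protein gene RPS9 and the imprinted gene PEG3. Inside it lay 1 peak, between genes, with a fold of 4.30. Its genes had a median span of 14.6 kb, close to the 15.8 kb (15849 bp) of both chromosomes together. The rows described next, starting at ZNF114, IZUMO2, WTIP and OR4F17, had shorter medians of 11.407, 10.769, 10.504 and 10.935 kb.

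The second, 91 genes between ZNF114 and VRK3 in 1.76 Mb, had no peak at all. It includes FTL, the ferritin light chain, the apoptosis gene BAX, the U1 snRNP gene SNRNP70, the arginine methyltransferase gene PRMT1, the ribosomal protein gene RPL13A and NUP62. The third, 72 genes between IZUMO2 and PPP2R1A, holds the kallikreins (KLK3), the sialic acid-binding lectins (CD33) and POLD1, the catalytic subunit of a DNA polymerase.

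The fourth ran from WTIP to COX7A1 with 66 genes, among them HAMP, which encodes hepcidin, the B cell receptor CD22 and the histone methyltransferase gene KMT2B. The fifth, at the tip of the short arm from OR4F17 to MEX3D, had 60 genes, including PTBP1, a splicing repressor, STK11, the kinase LKB1, GPX4 and CIRBP, a cold-inducible RNA-binding protein. It held 2 peaks, both between genes upstream of SBNO2, with folds of 6.24 and 4.30.

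Gene-dense bins without a peak were found on both chromosomes. Of bins with 20 or more protein-coding genes, 13 of 50 had none (26%), against 27 of 159 (16.98%) on the other autosomes, and these 13 bins hold 416 genes. The bin at 49 to 50 Mb of chromosome 19 had 55 genes and no peak, and those at 35 to 36 Mb and 55 to 56 Mb had 48 each. The bin at 10 to 11 Mb, with 36, holds DNMT1, the maintenance DNA methyltransferase, KEAP1, the sensor of oxidative stress, ICAM1 and TYK2. On chromosome 22 the single such bin, 19 to 20 Mb with 22 genes, holds HIRA, TBX1, UFD1, CDC45 and DGCR2, and no peak lay between 17.9 and 20.1 Mb.

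By gene density, the shares of genes with a peak were nearly equal in bins of middle density. In bins of 10 to 19 genes 18.2% of genes carried a peak (13.6 to 23.5%), against 18.3% on the other autosomes. In bins of 30 or more genes the shares were 4.47% (3.20 to 6.06%) and 5.29%, and in bins of 20 to 29 genes 5.92% (4.202 to 8.07%) and 9.58%. In bins of fewer than 10 genes they were 9.09% (4.24 to 16.6%) and 26.2%. Intervals of the 2 sets did not overlap in bins of 20 to 29 and of fewer than 10 genes. Peaks per gene were lower in all 4 classes, with 0.576, 0.739, 0.315 and 0.151 from the sparsest to the densest bins, against 1.91, 1.16, 0.511 and 0.259. Bins of 20 or more genes hold 81% of the genes of the 2 chromosomes, against 27.2% elsewhere.

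The groups of genes on the 2 chromosomes differed in how many carried a peak, to be read against 7.08% of all their protein-coding genes and a median best fold of 6.45 among those with a peak. The lists were chosen with earlier results of these data known, so their shares are a description only. Of 242 zinc finger genes named ZNF and a number, 32 had a peak (13.2%, 9.22 to 18.2%), against 6.16% of the other genes there. On the other autosomes 55 of 225 such genes had one (24.4%). The median span of the zinc finger genes was 23.1 kb on chromosomes 19 and 22 and 23.5 kb elsewhere. The other genes of chromosomes 19 and 22 were shorter, with a median span of 14.5 kb. Whether the higher share of the zinc finger genes there remains among genes of like span was not tested. All 32 lie on chromosome 19, where they hold 103 of 309 peaks in single genes (33.3%). ZNF460 (20.7), ZNF121 (15.7), ZNF805 (11.2), ZNF507 (9.97), ZNF254 (9.41) and ZNF260 (9.28) had the highest folds. Zinc finger genes are tandem copies with similar sequence, so reads may be split or shared among them and their values are uncertain.

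Of 44 RNA-binding and splicing genes 7 had a peak (15.9%, median best fold 8.19). They were DDX17 (16.7), TNRC6B (10.1), the splicing regulator RBFOX2 (9.16), ZC3H4 (8.19), SUGP2 (7.34), the helicase DHX34 (5.79) and HNRNPUL1 (3.13). No peak was listed in PTBP1, HNRNPM, HNRNPL, ELAVL1, U2AF2 or SNRNP70, of which the first 3 encode hnRNP proteins like HNRNPC.

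Of 50 chromatin and transcription genes 8 had a peak (16%, median best fold 6.53). MBD3 (8.52) and GATAD2A (8.51) both encode parts of the NuRD complex, EP300 reached 7.22 and MRTFA 6.67, and UHRF1, a reader of methylated chromatin, had 5.15. No peak was listed in SMARCA4, DNMT1, KMT2B or JUNB. Of 41 signalling and cancer genes 9 had one (21.95%, median best fold 9.05), led by CRKL (16.2), NF2 (14.5), AXL (13.4), RHPN2 (12.01), and AKT2 (9.05). STK11, KEAP1, NOTCH3 and TGFB1 had none.

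Of 36 genes of membrane traffic and the cytoskeleton 7 had a peak (19.4%, median best fold 7.22), with ARHGAP35 at 11.5 and ACTN4 at 7.60 over 8 peaks. Of 15 DNA repair genes ERCC1 (5.27) and CHEK2 (4.79) had 1 peak each. Of 13 APOBEC3 and APOL genes, a cluster of chromosome 22, APOBEC3C (4.25) and APOL2 (3.82) had 1 each. The median spans of the traffic and chromatin lists, 47.5 and 45.8 kb, were above that of all genes there. Those of the RNA-binding, signalling and DNA repair lists were above it too, and that of the APOBEC3 and APOL genes was below it. Whether the shares of these lists remain higher among genes of like span was not tested.

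Several families had no peak in any member. These were the 13 cytosolic ribosomal protein genes, 29 killer-cell and leukocyte receptor and SIGLEC genes, 22 pregnancy-specific glycoprotein and CEACAM genes, 15 kallikreins, 21 olfactory receptors and 15 subunits of complex I, ATP synthase and cytochrome oxidase. On the other autosomes 1 of 63 ribosomal, 4 of 72 respiratory, 0 of 367 olfactory and 0 of 2 receptor and SIGLEC genes had one. The absence is thus not particular to these chromosomes where the families have members elsewhere. At 7.08% of all genes there, few members of families this small would carry a peak, and no difference was tested. Of 13 cytochrome P450 genes CYP4F3 had 2 peaks, up to 6.73. Median spans were short in the ribosomal (3.85 kb), kallikrein (7.09 kb) and respiratory (5.99 kb) genes. Whether these genes are transcribed in A549 was not measured by the list. Of 11 markers of A549 epithelium over the genome, 2 had a peak, and of 8 markers of other cell types none did. Over all autosomal protein-coding genes the share was 17.5%, and with so few markers no difference was tested. The list can show this for peaks and not for expression.

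Summits were unevenly placed along the genes. Strand was taken from the RefSeq start windows for 112 of the 131 genes, and 445 peaks in genes of 5 kb or more were placed. The first kb of the gene held 47 summits (10.6%, 7.86 to 13.8%), although 1 kb is on average 2.92% of the span there. On the other autosomes it held 8.47%, with 1 kb being 1.58% of the span. A summit in the first kb was found in 44 of the 112 genes (39.3%), against 50.5%. The strongest were those of CRKL (14.6), NF2 (14.5), ZNF460 (14.01), DDX17 (13.9) and AXL (13.4).

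The last kb held 3 summits (0.674%, 0.139 to 1.96%), against 14 of 17150 (0.0816%) elsewhere, both below the share of the span. The 3 belonged to ZNF460 (20.7), ZNF749 (5.18) and ZNF724 (4.90). Further in, 5.39% of summits lay 2 to 3 kb and 5.62% lay 3 to 4 kb before the end, against 2.79% and 2.20%.

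**Figure D5:**
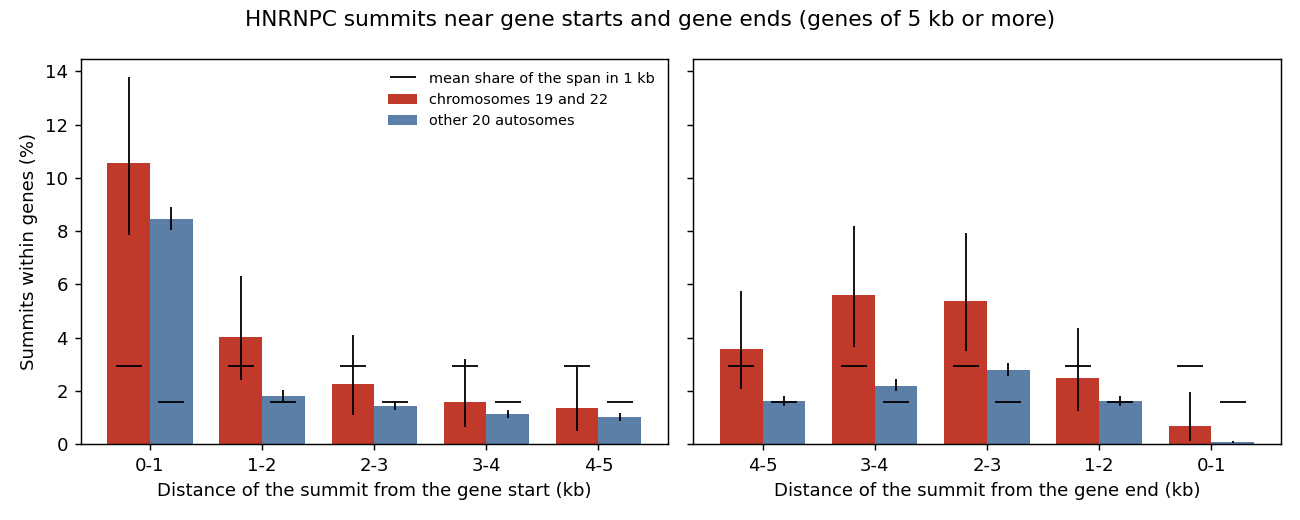
Percentage of summits in each kb from the gene start (left) and up to the gene end (right), for chromosomes 19 and 22 (red) and the other 20 autosomes (blue), with 95% exact intervals; black dashes show the mean share of the span that 1 kb makes up. The first kb holds 10.6% and 8.47% of summits, and the last kb holds 0.674% and 0.0816%.

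Over RefSeq start windows, 46 peaks overlapped 55 of 2585 windows (2.13%), against 1738 of 31139 (5.58%). Windows were searched for TTTTT on the gene's strand, the DNA spelling of a run of U in the RNA. It occurred in 13 of the 55 windows with a peak (23.6%), in 14.2% of all windows on chromosomes 19 and 22 and in 24.9% of all windows on autosomes. On chromosome 19 it was in 11 of 38 (28.9%), against 13.7% of all its windows. On chromosome 22 it was in 2 of 17 (11.8%), against 15.9%, the other way. The 55 windows belong to 52 genes, so some share a peak or a gene. On either strand, as TTTTT or AAAAA, the run was present in 22 of the 55, in 26.6% of all windows on the 2 chromosomes and in 39.2% of those on all autosomes. This was 18 of 38 on chromosome 19, against 26.8%, and 4 of 17 on chromosome 22, against 26.2%. On the other autosomes TTTTT on the gene's strand was less frequent in windows with a peak, 15.9%, than in all windows, 25.7%. GGACT, a common form of the methylation motif, was present on either strand in 31 of the 55 (56.4%) and in 49.9% of all windows of the 2 chromosomes. On chromosome 19 the shares were 60.5% and 50.4%, and on chromosome 22 they were 47.1% and 48.4%. The letters are a description of these windows and show no site. Of the windows printed above, that of DDX17 holds TTTTT and that of ZNF460 holds GGACT on its own strand. Both lie outside the bases that the peak covers.

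Peaks with no single gene were commoner here than elsewhere. Summits that fell in several overlapping gene spans and were counted for none numbered 31 (5.37%), against 2.42%. Of these 17 lay where ZNF565 and ZNF146 overlap (chr19:36215137-36236593), with folds of 4.30 to 14.01, so most of the 31 came from 1 locus. Next by fold were ARRDC5 with UHRF1 (10.3) and MIEF1 with its upstream reading frame MIURF (7.46). Outside every gene span lay 29 summits (5.03%), against 1.25%. Chromosome 21 had the highest share outside, 8.10%, above 5.87% on chromosome 19 and 3.65% on chromosome 22. Its share of shared summits was 6.07%, beside 6.15% on chromosome 19 and 4.11% on chromosome 22. The strongest of the 29 were the 6238 bp peak after ZNF460 (10.8), a peak 8969 bp before the start of BCL3 (9.93), a nuclear cofactor of NF-κB, and one 5600 bp from ZNF552 (9.16). In all 5 such peaks followed ZNF460, with summits 8422 to 12921 bp from its end. The strongest peaks in noncoding genes were those of MIR23AHG (6.93), LINC02987 (6.80 over 4 peaks) and the pseudogene DUXAP8 (6.73 over 5 peaks), and LOC105372436 had 1 of 4.79.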

How the data were processed

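RIP-seq peaks of 1 HNRNPC library from A549 cells were used; input values were not used here. The authors' list is in narrowPeak format on build hg38, and per the submitters' processing notes it involved HISAT2, MACS2 and bedtools. Their versions, roles and settings, and the control, are not given in the sources used here. As deposited, each peak has a score (10 times the −log10 q, cut to a whole number), a fold enrichment (a ratio over the caller's background) and the −log10 of p and q.

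Genes were the spans of a RefSeq table of GRCh38.p14; 676 entries on other contigs, 153 of them protein-coding, were left out. A summit belonged to the gene whose span held it, protein-coding genes first, and was shared when several did. Span classes, 1 Mb bins and rows of genes without a peak were then counted. Arms were split at the longest stretch without a gene. Strand came from the start windows. Members, lists and rules were chosen with earlier results of these data known. Named are the 15 genes with most peaks, those of the 15 highest and 5 widest peaks, the 5 most densely covered, up to 6 of each list by fold, the ends and known genes of peak-free rows and bins, and the 3 strongest noncoding, shared and intergenic cases. The 6 printed start windows and 1 hairpin were selected after their values were seen, by the rule given beside them. Some items that these rules select are not reported here. Lists were set beside the share of all genes, without a test. Counting was tested on simulated data. Software was Python 3.11.15 with pandas 2.3.3, numpy 2.4.6, matplotlib 3.10.9 and scipy 1.17.1. Alternatives were a −log10 q of 3 or more, a minimum fold of 4, other assignment rules, merging, other bins and classes, and leaving out gene groups.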

Additional observations from a re-analysis of the deposited data

How the results depend on the processing

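Of 51 alternatives to the values above, 42 kept the value within its counting interval (counts within 1.5 times) and 9 moved it. For the share of close neighbours 2 of these 9 also turned the order of the chromosomes against the other autosomes. The ratios to the other autosomes stayed below 1 under every alternative run, at 0.481 to 0.542 after standardising for span, 0.209 to 0.248 for peaks per gene and 0.520 to 0.609 for peaks per Mb of gene span. Without the ZNF genes peaks per gene were 0.209 times and peaks per Mb of span 0.520 times those elsewhere. Without the peaks of chromosome 19 from ZNF264 to ZNF606, a choice made after seeing the data, peaks per Mb of span were 0.549 times those elsewhere. With genes of 10 kb or more 10.4% carried a peak, against 24.8% elsewhere. With a −log10 q of 3 or more the median fold was 5.99, against 6.24. Neighbours 1 kb or less apart made up 5.4% after merging peaks with edges 500 bp or less apart, against 6.15% elsewhere, and 51.1% lay within 5 kb, against 54.5%. The 10 fullest bins held 35.4% of the peaks when bins were 0.5 Mb long. With bins of 30 or more genes, 6 of 24 had no peak (25%), against 13 of 63 elsewhere (20.6%).

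No paired analysis was possible because each group has 1 sample and only 1 library has a peak list here. The list has no read totals, so what depth limits cannot be stated. For a gene without a peak, low expression, a short span and thin coverage cannot be told apart. Exons, introns and the strand of a peak were not resolved.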
